A study of Saccharomyces cerevisiae with 18 samples.

Results

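The genes described are 10 phospholipid genes of the budding yeast Saccharomyces cerevisiae, most of them known to be controlled through inositol: INO1, ITR1, INO2, INO4, OPI1, CHO1, PSD1, CHO2, OPI3 and GIT1. They were taken by name, as the probe sets that the array's annotation gives to them, and were chosen with earlier results of these data known. Each has 1 probe set that reads no other gene, and all 10 were among the 5363 genes tested, of 5449 that the array names. RNA levels were read on 18 Affymetrix arrays, with 1 total RNA sample on each. There were 3 strains, which the labels call ethanol-tolerant: a haploid labelled Mat alpha, a haploid labelled Mat a, and a diploid. Every one was grown in fermentors at 0%, 3% or 7% ethanol by volume and was sampled in mid-exponential phase. That gives 9 groups of 2 samples.

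All groups, the 0% cultures included, share a rich medium of yeast extract, peptone and 100 g/L glucose, inoculated at an OD600 of 0.5. Rich medium carries inositol and choline of its own in amounts that the labels do not give, and no culture without them was analysed here. Each strain type is 1 strain, so a difference between haploid and diploid is a difference between these strains. The labels do not say whether the 2 samples of a group are separate cultures, and the p-values below measure the spread between these samples, which may be technical.

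Yeast makes inositol from glucose phosphate, with the INO1 enzyme at the first step, and takes it up from the medium through ITR1. Inositol joins CDP-diacylglycerol to form phosphatidylinositol, and the same CDP-diacylglycerol is the start of phosphatidylserine, phosphatidylethanolamine and phosphatidylcholine, made in that order by CHO1, PSD1, and then CHO2 and OPI3. The genes of these enzymes are switched on by a dimer of the INO2 and INO4 proteins. The repressor OPI1 is held at the endoplasmic reticulum by phosphatidic acid and enters the nucleus when inositol is plentiful and phosphatidic acid is used up. GIT1 imports glycerophosphoinositol, the deacylated form of phosphatidylinositol, from outside the cell.

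The haploid labelled a did not carry the transcripts of an a cell. Its 4 alpha-cell genes had a median signal of 1405, against 2327 in the haploid labelled alpha and 15.9 in the diploid. The median of 7 a-cell genes was 18.8, 8.63 and 8.11 in the same order, so both haploids had the transcripts of alpha cells. HMRA1, the a1 gene, exceeded background on 0 of 6 arrays of either haploid and on 6 of 6 of the diploid, and that strain is called "labelled a" throughout. The deposited trimmed means ranged from 368.5 to 521.5 and the arrays were scaled to 1 level. The background limit of an array was then 4.60 to 7.58, and the pooled SD between arrays of 1 group was 0.116 to 0.158 on the log2 scale. The small number of arrays limits the precision.

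A level below is the scaled signal, and a change is the difference of log2(scaled signal + 16) ± SE of the limma fit, with an adjusted p over all genes tested. The added 16 makes changes of dim transcripts smaller than the ratio of their signals. The words for a rise or a fall, or for a higher or lower level, stand only where the adjusted p was under 0.05. A signal is read on the RNA of a whole culture, so more RNA per cell and more cells that carry the transcript cannot be told apart.

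All 10 genes rose between 0% and 7% ethanol in the mean of the strains, where 48.3% of all genes tested rose and 22.3% fell. Their median change was 0.78, against 0.13 for all genes. Since the 10 genes were chosen with earlier results of these data known, these counts and medians describe the genes and do not test them as a set. GIT1 and INO1 stood apart in size, ranking 5th and 6th among the 5363 genes by the size of the rise, whereas PSD1 and CHO2 rose by less than 0.5 (log2). Within the strains, 8 of the 10 rose in the haploid labelled alpha (26.9% of all genes), 10 in the haploid labelled a (48.4%) and 10 in the diploid (36.4%). None fell in any strain, where the shares of all genes that fell were 19.9%, 15.1% and 20%. The 2 arrays at 7% lay above both arrays at 0% for 9 of the 10 genes in the haploid labelled alpha (41.3% of all genes), for 10 in the haploid labelled a (59.4%) and for 10 in the diploid (49.2%). The shares of rises and falls over all genes depend on the scaling of the arrays, as given among the closing observations.

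**Figure D1:**
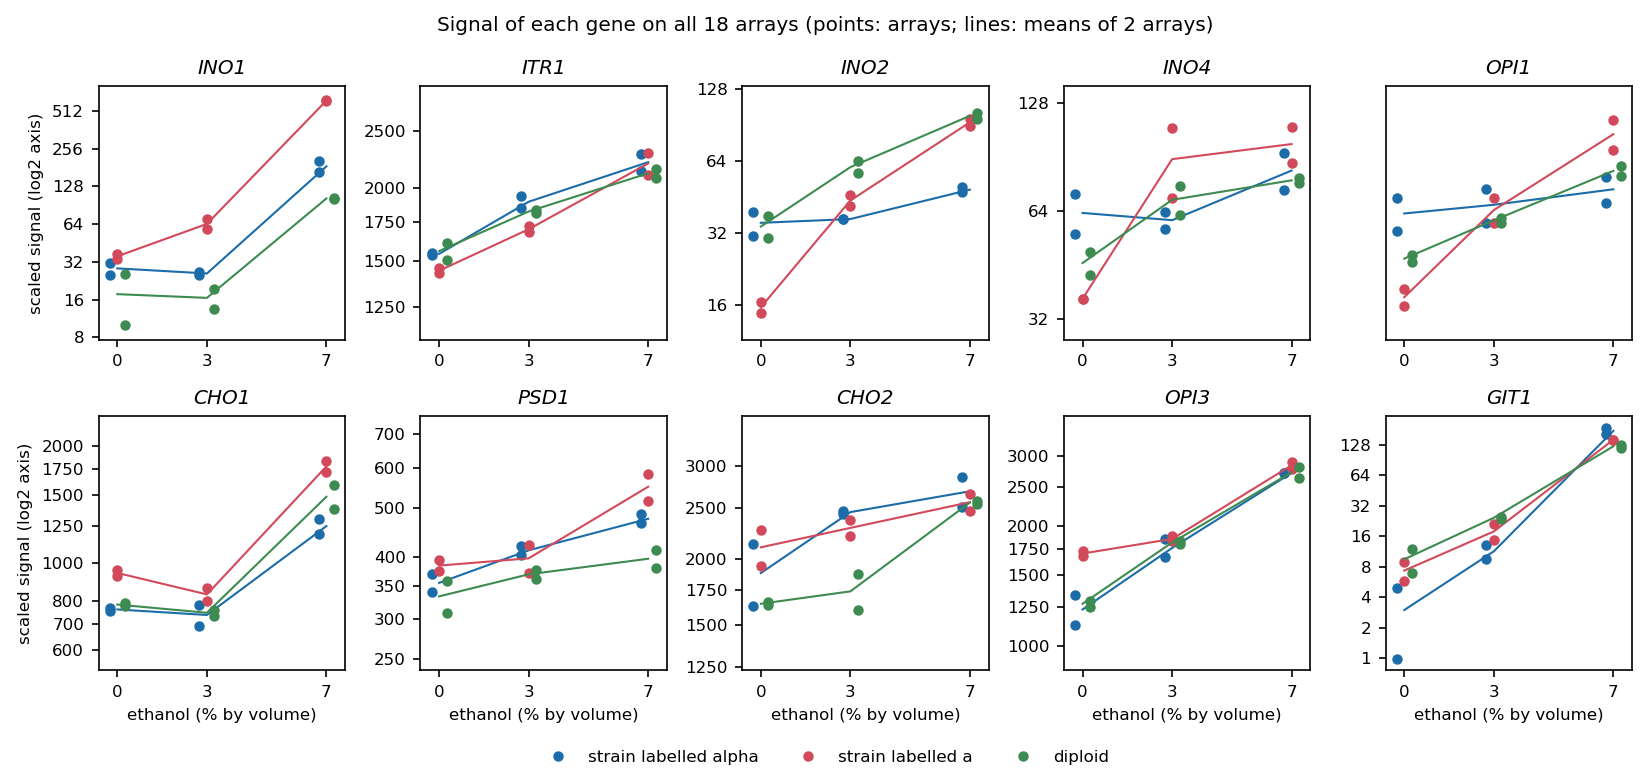
Scaled signal (log2 axis) of the 10 genes against ethanol (% by volume). Points are the 18 arrays, shifted slightly by strain, and lines join the means of 2 arrays. Arrays at 7% lie above the 0% arrays for all genes in each strain except OPI1 in the haploid labelled alpha, where they overlap.

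INO1 (YJL153C), the inositol phosphate synthase, is the classical gene of this control. Its signal in the haploid labelled alpha was 31.4 and 25.3 on the 0% arrays, 26.7 and 25.0 at 3%, and 203.7 and 166.6 at 7%. The haploid labelled a gave 33.9 and 37.0 at 0%, 58.1 and 70.4 at 3%, and 616 and 624.2 at 7%. The diploid gave 25.4 and 9.93 at 0%, 19.4 and 13.6 at 3%, and 103.5 and 101.6 at 7%. The 7% arrays lay far above all others in each strain, and those of the haploid labelled a were the highest by a wide margin. In the order of the group means, the 4 groups at 0% or 3% in the haploid labelled alpha and the diploid overlapped at the bottom. Above them every next group was clear of the one before: labelled a at 0% (35.4), labelled a at 3% (64.3), diploid at 7% (102.5), labelled alpha at 7% (185.2) and labelled a at 7% (620.1).

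The rise of INO1 from 0% to 7% was 2.55 ± 0.10 in the mean of the strains (adjusted p = 3.02e-15). It was 2.18 ± 0.17 in the haploid labelled alpha, 3.63 ± 0.17 in the haploid labelled a and 1.86 ± 0.17 in the diploid, where the mean signals stood in ratios of 6.53, 17.5 and 5.81. Among all genes the rise ranked 9th, 2nd and 69th in these strains. At 3% ethanol only the haploid labelled a had a rise that passed the test, 0.64 ± 0.17, and the changes in the haploid labelled alpha (-0.08 ± 0.17) and the diploid (-0.02 ± 0.17) did not. That call was lost with quantile normalization (0.34, adjusted p = 0.112) and without the second 3% array of the strain (0.53, adjusted p = 0.0522).

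ITR1, the main inositol transporter of the plasma membrane, changed less and in much the same amount in each strain. Its signal ran from 1431 to 1614 over the 6 arrays at 0%, from 1681 to 1939 at 3% and from 2084 to 2300 at 7%. The 3 levels did not overlap even with the strains pooled. It rose by 0.52 ± 0.04 at 7% in the mean of the strains (adjusted p = 1.76e-10) and by 0.25 ± 0.04 at 3%, and it passed the test at both levels in every strain. The rises at 3% within strains were small, 0.22 to 0.29, and none of them passed with no scaling between arrays (adjusted p = 0.115 to 0.422). In the haploid labelled a the 3% call was lost without its second 3% array (adjusted p = 0.0502), and in the diploid without the second 0% array (adjusted p = 0.149) or either 3% array (adjusted p = 0.0795 and 0.113). With median centring the 3% change was 0.057 in the haploid labelled a (adjusted p = 0.593) and 0.19 in the diploid (adjusted p = 0.105). At 7% the rise in the diploid did not pass with no scaling (adjusted p = 0.0826). No difference between strains passed the test for ITR1.

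INO2, the subunit of the activator that carries its activation domain, differed in level and in course between the strains. Signals in the haploid labelled alpha were 39.4 and 31.2 at 0%, 36.7 and 36.5 at 3%, and 47.4 and 49.9 at 7%. Those in the haploid labelled a were 14.8 and 16.4 at 0%, 46.0 and 41.6 at 3%, and 96.2 and 90.2 at 7%. Those in the diploid were 37.6 and 30.5 at 0%, 57.0 and 63.9 at 3%, and 96.6 and 101.8 at 7%. The 0% arrays of the haploid labelled a thus lay below those of both other strains. Its 7% arrays lay above those of the haploid labelled alpha, beside those of the diploid. The haploid labelled a was not tested against the diploid alone, for this or any other gene. The change from 0% to 7% was 0.34 ± 0.12 in the haploid labelled alpha (adjusted p = 0.0237), 1.79 ± 0.12 in the haploid labelled a and 1.21 ± 0.12 in the diploid. For the haploid labelled alpha 23 of 29 alternatives kept the call, and not all of the others are named here. The call in the haploid labelled alpha was lost with no scaling between arrays (adjusted p = 0.293), with quantile normalization (adjusted p = 0.1) and without the second 0% array (adjusted p = 0.228) or either 7% array (adjusted p = 0.0605 and 0.111).

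INO4, the DNA-binding partner of INO2, also had its lowest 0% arrays in the haploid labelled a, with more spread between arrays. The haploid labelled alpha gave signals of 71.3 and 55.1 at 0%, 57.2 and 63.5 at 3%, and 92.9 and 73.1 at 7%. For the haploid labelled a they were 36.5 and 36.4 at 0%, 69.8 and 108.8 at 3%, and 86.9 and 109.9 at 7%. For the diploid they were 49.1 and 42.5 at 0%, 62.5 and 75.1 at 3%, and 76.7 and 79.2 at 7%. Its 3% and 7% arrays overlapped in the haploid labelled a, and both lay above the 0% arrays. INO4 rose at 7% by 1.12 ± 0.16 in the haploid labelled a and by 0.61 ± 0.16 in the diploid, where quantile normalization ended the call (adjusted p = 0.0919). Its change was 0.32 ± 0.16 in the haploid labelled alpha (adjusted p = 0.109).

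OPI1, the repressor of the same genes, moved in the same direction as the activator subunits. Its signal in the haploid labelled alpha was 48.5 and 37.5 at 0%, 39.8 and 52.1 at 3%, and 57.0 and 46.5 at 7%, and all 3 levels overlapped. The haploid labelled a gave 21.2 and 24.0 at 0%, 40.0 and 48.3 at 3%, and 88.0 and 70.0 at 7%. The diploid gave 31.2 and 29.6 at 0%, 41.5 and 40.1 at 3%, and 62.1 and 57.2 at 7%. The levels were clear of each other in the haploid labelled a and in the diploid. OPI1 rose at 7% by 1.29 ± 0.14 and 0.70 ± 0.14 in those strains, and its change in the haploid labelled alpha was 0.20 ± 0.14 (adjusted p = 0.246). At 3% it rose in the haploid labelled a, by 0.64 ± 0.14, which quantile normalization ended (0.33, adjusted p = 0.073).

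Of the enzymes downstream of CDP-diacylglycerol, CHO1, the phosphatidylserine synthase, did not pass the test at 3% and rose at 7% in all strains. Its signal at 0% was 754.5 and 770.1 in the haploid labelled alpha, 964.7 and 926.4 in the haploid labelled a, and 790.9 and 778.2 in the diploid. At 3% it was 692.8 and 782.9, 802.1 and 864.1, and 760.3 and 734.8 in the same order. At 7% it was 1192 and 1302, 1834 and 1714, and 1378 and 1588. The 3% arrays lay below the 0% arrays without overlap in the haploid labelled a and in the diploid, and every 7% array lay above all others. The change was -0.10 ± 0.05 at 3% in the mean of the strains (adjusted p = 0.0956) and 0.83 ± 0.05 at 7% (adjusted p = 3.41e-12), with 0.70, 0.90 and 0.90 in the strains labelled alpha and a and in the diploid.

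PSD1, the mitochondrial phosphatidylserine decarboxylase, had the smallest change of the 10 at 7% in the mean of the strains, though not in either haploid. Its signal ran from 309 to 393.4 over the 6 arrays at 0%, from 360.9 to 421.8 at 3% and from 379.3 to 585 at 7%. Taken over the strains these ranges overlapped. The rise at 7% was 0.38 ± 0.06 in the mean of the strains (adjusted p = 3.52e-06) and 0.24 ± 0.10 in the diploid (adjusted p = 0.0387). In the diploid the call was lost with no scaling (adjusted p = 0.76), quantile normalization (adjusted p = 0.0504) and median centring (adjusted p = 0.776), and without the second 0% array (adjusted p = 0.315) or the first 7% array (adjusted p = 0.226). With median centring it was also lost in the haploid labelled a (adjusted p = 0.14), and with no scaling in the haploid labelled alpha (adjusted p = 0.203).

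CHO2 and OPI3, the methyltransferases that turn phosphatidylethanolamine into phosphatidylcholine, act in sequence and differed in their course. The signal of OPI3 in the haploid labelled alpha was 1336 and 1128 at 0%, 1849 and 1669 at 3%, and 2714 and 2718 at 7%. The haploid labelled a gave 1675 and 1731, 1826 and 1881, and 2898 and 2779 at the same levels. The diploid gave 1253 and 1294, 1797 and 1834, and 2636 and 2816. The 0% arrays of OPI3 thus lay above those of the other strains in the haploid labelled a, and the 3 strains met at 7%. It rose at 7% by 0.98 ± 0.04 in the mean of the strains (adjusted p = 4.55e-14). At 3% it rose by 0.51 ± 0.08 in the haploid labelled alpha and by 0.51 ± 0.08 in the diploid, and its change in the haploid labelled a was 0.12 ± 0.08.

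CHO2 ran from 1629 to 2266 over the 6 arrays at 0%, from 1605 to 2466 at 3% and from 2465 to 2857 at 7%. Its levels at 0% and 3% overlapped over the strains pooled, and those at 3% and 7% just met, at 2466 and 2465. It rose at 7% by 0.48 ± 0.06 in the mean of the strains (adjusted p = 5.37e-07), by 0.52 ± 0.10 in the haploid labelled alpha, 0.28 ± 0.10 in the haploid labelled a (adjusted p = 0.0224) and 0.63 ± 0.10 in the diploid. The call in the haploid labelled a was kept in 23 of 29 alternatives, and not all of the others are named here. It depended on the scaling: with no scaling the adjusted p was 0.0786, and with median centring the change was -0.058. It was also lost without the second 0% array (adjusted p = 0.233) or the first 7% array (adjusted p = 0.135) of that strain.

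GIT1 (YCR098C) was near or below the background limit at 0% and went up in every strain. Signals in the haploid labelled alpha were 5.01 and 0.999 at 0%, both below the limit, 13.2 and 9.65 at 3%, and 188.4 and 163.8 at 7%. Those in the haploid labelled a were 5.83 and 8.91 at 0%, 21.2 and 14.7 at 3%, and 144.4 and 143.5 at 7%. Those in the diploid were 12.1 and 6.92 at 0%, 24.0 and 24.9 at 3%, and 128.4 and 119.4 at 7%. The 3 levels were clear of each other in every strain, and GIT1 lay above the limit on 15 of the 18 arrays. The other 9 genes lay above it on all 18.

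GIT1 rose by 2.86 ± 0.08 from 0% to 7% in the mean of the strains (adjusted p = 4.34e-17), with 3.34 ± 0.14 in the haploid labelled alpha, 2.78 ± 0.14 in the haploid labelled a and 2.46 ± 0.14 in the diploid. In signal the rise in the haploid labelled alpha was at least 30.4-fold, with the 0% arrays set to their background limit. The mean signals stood in ratios of 19.5 in the haploid labelled a, where only 1 of the 2 arrays at 0% exceeded the limit, and 13 in the diploid, where both did. Which gene changed most depended on the pseudocount, since 64 in place of 16 gave 1.75 for INO1 and 1.58 for GIT1. Besides ITR1, GIT1 was the gene that rose at 3% in all strains, by 0.53 ± 0.14, 0.53 ± 0.14 and 0.67 ± 0.14 in the strains labelled alpha and a and in the diploid. The 3% call was lost in the haploid labelled alpha without its second 0% array (adjusted p = 0.135) or its first 3% array (adjusted p = 0.0924). In the haploid labelled a it was lost without its first 0% array (adjusted p = 0.058) or its first 3% array (adjusted p = 0.0712).

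The genes differed in the ethanol level at which they passed the test. At 3%, 7 of the 10 rose in the mean of the strains and 0 fell, where 32% of all genes rose and 17.3% fell: INO2 (0.52 ± 0.07), INO4 (0.46 ± 0.09), OPI1 (0.33 ± 0.08), OPI3 (0.38 ± 0.04), CHO2 (0.20 ± 0.06), ITR1 (0.25 ± 0.04) and GIT1 (0.58 ± 0.08). INO1 (0.18 ± 0.10, adjusted p = 0.126), PSD1 (0.13 ± 0.06, adjusted p = 0.0556) and CHO1 did not pass. Within the strains 4 rose in the haploid labelled alpha (12.5% of all genes), 6 in the haploid labelled a (31.5%) and 4 in the diploid (12.4%). None fell, where 12.6%, 12% and 7.96% of all genes fell in that order. The count for the mean of the strains draws on different strains for different genes. Without the arrays of the haploid labelled a, the changes of INO4 (0.20, adjusted p = 0.118) and OPI1 (0.18, adjusted p = 0.16) did not pass, and without those of the haploid labelled alpha that of CHO2 did not (0.10, adjusted p = 0.195). Without the first 0% array of the diploid, INO1 did pass (0.29, adjusted p = 0.00635). It also passed without the arrays of the haploid labelled alpha (0.31, adjusted p = 0.0419) or of the diploid (0.28, adjusted p = 0.0215), and without those of the haploid labelled a it was -0.05 (adjusted p = 0.797). PSD1 passed without that array (adjusted p = 0.024), the first 0% array of the haploid labelled alpha (adjusted p = 0.0494) or the first 3% array of the haploid labelled a (adjusted p = 0.0277), and CHO1 was lower without the second 3% array of the haploid labelled alpha (-0.13, adjusted p = 0.0467). With median centring CHO1 was lower at 3% in the mean of the strains (-0.17, adjusted p = 0.0223) and in the haploid labelled a (-0.36, adjusted p = 0.00697), so that the count of 0 falls depends on the scaling.

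From 3% to 7%, 9 of the 10 rose further in the mean of the strains, where 38% of all genes did and 18.3% fell. INO1 (2.38 ± 0.10) and GIT1 (2.28 ± 0.08) gained most, then CHO1 (0.93 ± 0.05), OPI3 (0.61 ± 0.04) and INO2 (0.59 ± 0.07). INO4 was the one that did not pass, at 0.22 ± 0.09 (adjusted p = 0.0508), and it passed without either 0% or the second 7% array of the haploid labelled alpha, the second 3% or first 7% array of the haploid labelled a, or the second 3% array of the diploid (adjusted p = 0.00508 to 0.046). In the haploid labelled alpha 5 rose (16.6% of all genes), in the haploid labelled a 8 (27.9%) and in the diploid 8 (27.3%). None of the 10 fell in a strain, where 10.1%, 10% and 16.4% of all genes did. The comparisons of 3% with 0% and of 7% with 3% share the 3% arrays, so an error in those arrays moves both in opposite directions.

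**Figure D2:**
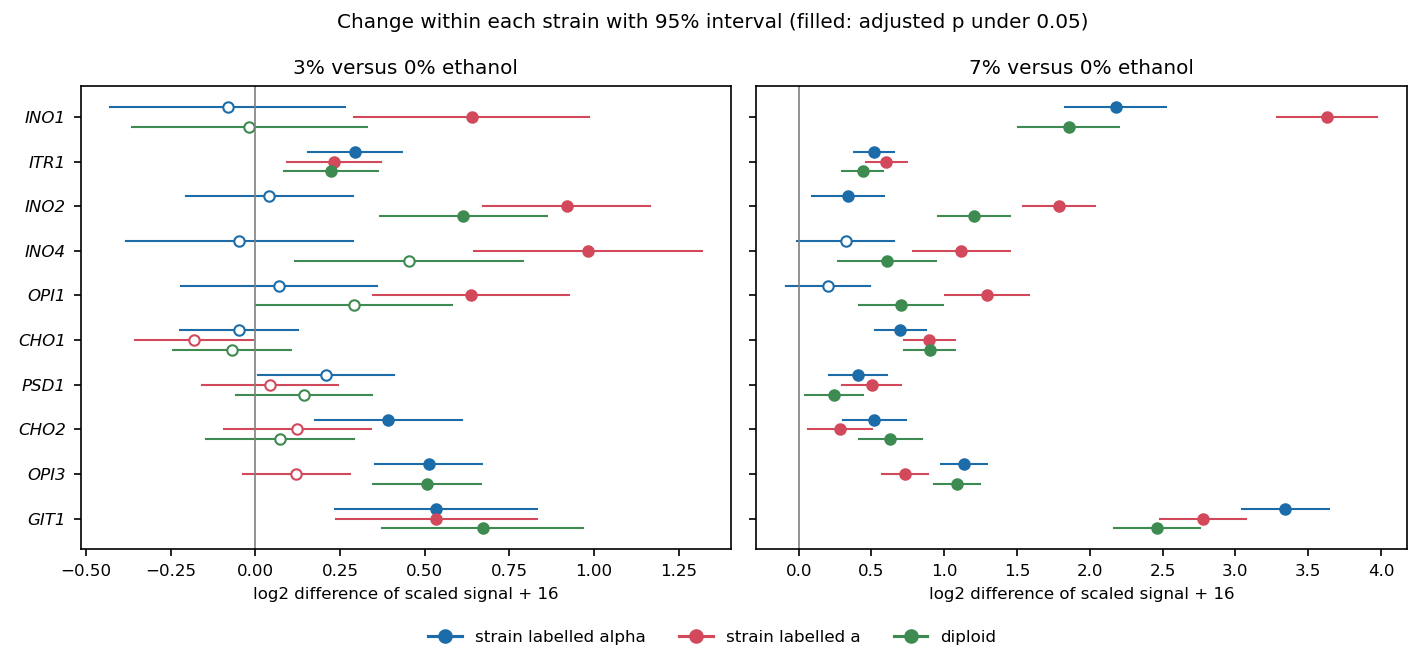
Change (log2 difference of scaled signal + 16) of the 10 genes within each strain, at 3% and at 7% against 0% ethanol, with 95% intervals. Filled points passed the test. INO1 and GIT1 lie farthest to the right at 7%, and the 3 regulators of the haploid labelled alpha lie between -0.05 and 0.34 at both levels.

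The haploids were compared at each ethanol level. At 0% ethanol INO2 (-0.69 ± 0.12, adjusted p = 6.98e-05), INO4 (-0.59 ± 0.16, adjusted p = 0.00487) and OPI1 (-0.61 ± 0.14, adjusted p = 0.00118) were lower in the haploid labelled a than in the haploid labelled alpha. OPI3 and CHO1 were higher there, so that 2 of the 10 were higher and 3 lower, where 15.8% of all genes were higher and 34.7% lower. With quantile normalization the differences of INO4 (adjusted p = 0.164), OPI1 (adjusted p = 0.0801) and CHO1 (adjusted p = 0.0768) at 0% were lost, and without the first 0% array of the haploid labelled alpha that of INO4 was (adjusted p = 0.0711). At 3% INO1 and INO4 were higher in the haploid labelled a (19.1% of all genes were), and none of the 10 was lower (17.6%). INO4 lost that call without either 3% array of the haploid labelled alpha (adjusted p = 0.17 and 0.0705) or the second 3% array of the haploid labelled a (0.17, adjusted p = 0.468).

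At 7% the haploid labelled a was the higher in 4 of the 10 genes, where 28.7% of all genes were higher, and in none was it the lower, where 17.2% were. INO1 was higher by 1.67 ± 0.17 (adjusted p = 1.03e-07), INO2 by 0.76 ± 0.12 (adjusted p = 3.03e-05), OPI1 by 0.49 ± 0.14 (adjusted p = 0.00726) and CHO1 by 0.50 ± 0.08. INO2 and OPI1 thus were lower at 0% and higher at 7%. The difference of OPI1 at 7% was lost with quantile normalization (adjusted p = 0.0846), with median centring (adjusted p = 0.0814), without the second 7% array of the haploid labelled alpha (adjusted p = 0.0961) and without the first of the haploid labelled a (adjusted p = 0.106). INO1 passed the test at 3% and 7%, and as a mean over the 3 levels it was 0.94 ± 0.10 higher in the haploid labelled a (adjusted p = 5.14e-08).

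The difference itself was tested as an interaction. The change from 0% to 7% was larger in the haploid labelled a than in the haploid labelled alpha for INO1 and INO2 (1.45 ± 0.23, adjusted p = 1.38e-04, and 1.45 ± 0.17, adjusted p = 3.37e-06), OPI1 (1.09 ± 0.20, adjusted p = 3.63e-04) and INO4 (0.80 ± 0.23, adjusted p = 0.0102). It was smaller for OPI3 (-0.40 ± 0.11, adjusted p = 0.00671) and GIT1 (-0.56 ± 0.20, adjusted p = 0.033). The difference of GIT1 starts from 0% levels at background, since 0 of 2 arrays of the haploid labelled alpha and 1 of 2 of the haploid labelled a exceeded the limit, and it was -1.53 with a pseudocount of 1 and -0.30 with 64. Of all genes 30.5% had a larger and 7.4% a smaller change in the haploid labelled a, so the 4 and 2 of 10 stand against a background in which many genes responded more in that strain. The median difference was 0.15 for the 10 genes and 0.21 for all genes. INO1, INO2 and OPI1 kept the call under each alternative scaling, filter and pseudocount, INO4 lost it with quantile normalization (0.33, adjusted p = 0.306) and median centring (0.52, adjusted p = 0.0906), and OPI3 lost it with no scaling and with quantile normalization. Without the first 0% or the second 7% array of the haploid labelled alpha, or the second 7% array of the haploid labelled a, INO4 lost it too (adjusted p = 0.0502 to 0.0623), and OPI3 lost it without the second 0% array of the haploid labelled alpha (adjusted p = 0.0512). GIT1 lost it with no scaling, without the second 0% or first 7% array of the haploid labelled alpha, and without the second 0% or either 7% array of the haploid labelled a (adjusted p = 0.0642 to 0.193).

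The change from 0% to 3% also differed between the haploids, in 4 genes that gained more in the haploid labelled a (15.3% of all genes) and in OPI3, which gained less (3.6%). INO4 differed by 1.03 ± 0.23 (adjusted p = 0.0045), INO2 by 0.88 ± 0.17 (adjusted p = 0.00142), INO1 by 0.72 ± 0.23 (adjusted p = 0.0371), OPI1 by 0.57 ± 0.20 (adjusted p = 0.0485) and OPI3 by -0.39 ± 0.11 (adjusted p = 0.0166). The differences of INO1 and OPI1 did not pass under any of no scaling, quantile normalization and median centring (adjusted p from 0.0507 to 0.452). Without single arrays of the haploids INO1 (adjusted p = 0.0677 to 0.124), OPI1 (0.0506 to 0.192) and OPI3 (0.051 to 0.104) lost the call: INO1 without any 0% or 3% array except the second 0% of the haploid labelled alpha and the first 3% of the haploid labelled a, OPI3 without the second 0% or first 3% array of the haploid labelled alpha or the second 0% array of the haploid labelled a. OPI1, nearest the threshold, lost it without any 1 of the diploid arrays, the first 0%, first 3% or either 7% array of the haploid labelled alpha, or either 0% or the second 3% array of the haploid labelled a. The changes of the haploid labelled a start from 0% arrays on which the 3 regulators had their lowest mean signals of all 9 groups. The same 0% arrays serve both interactions, which are therefore not separate evidence.

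The diploid had less INO1 than the mean of the haploids at every level: by -0.54 at 0%, -0.84 at 3% and -1.59 at 7%, and by -0.99 ± 0.08 over the levels (adjusted p = 7.11e-09). The difference at 0% rested on the second diploid array, without which it was -0.20 (adjusted p = 0.414). INO2 was higher in the diploid than in the mean of the haploids, by 0.40 ± 0.06 over the levels (adjusted p = 1.6e-05). The haploids were unlike at 0% and 7%. The mean signal of INO2 at 0% was 34.0 in the diploid, 35.3 in the haploid labelled alpha and 15.6 in the haploid labelled a. In that order it was 60.45, 36.6 and 43.8 at 3%, and 99.2, 48.6 and 93.2 at 7%. Against the mean of the haploids, the activator subunit and the synthase gene thus stood on opposite sides. CHO2 (-0.25 ± 0.05, adjusted p = 7.76e-04) and PSD1 (-0.21 ± 0.05, adjusted p = 0.00169) were lower (PSD1 not with no scaling, adjusted p = 0.078), which makes 1 of the 10 higher and 3 lower, where 15.8% of all genes were higher and 24.6% lower. The diploid's change from 0% to 7% was smaller than the mean of the haploids for INO1 (-1.05 ± 0.20, adjusted p = 0.00255) and GIT1 (-0.60 ± 0.17, adjusted p = 0.0344), where 4.77% of all genes had a larger and 4.44% a smaller change. The change of INO1 was 1.86 in the diploid, 2.18 in the haploid labelled alpha and 3.63 in the haploid labelled a. The diploid was not tested against either haploid alone. For GIT1 the smaller change rests on the same haploid 0% levels at background. With a pseudocount of 1 both calls were lost (INO1 -0.77, adjusted p = 0.149, and GIT1 -1.29, adjusted p = 0.0729). INO1 kept it without any 1 array. GIT1 lost it with no scaling (adjusted p = 0.0583) and without the second 0% or first 7% array of the haploid labelled alpha, or the first 0% or either 7% array of the haploid labelled a or of the diploid (adjusted p = 0.0542 to 0.22).

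**Figure D3:**
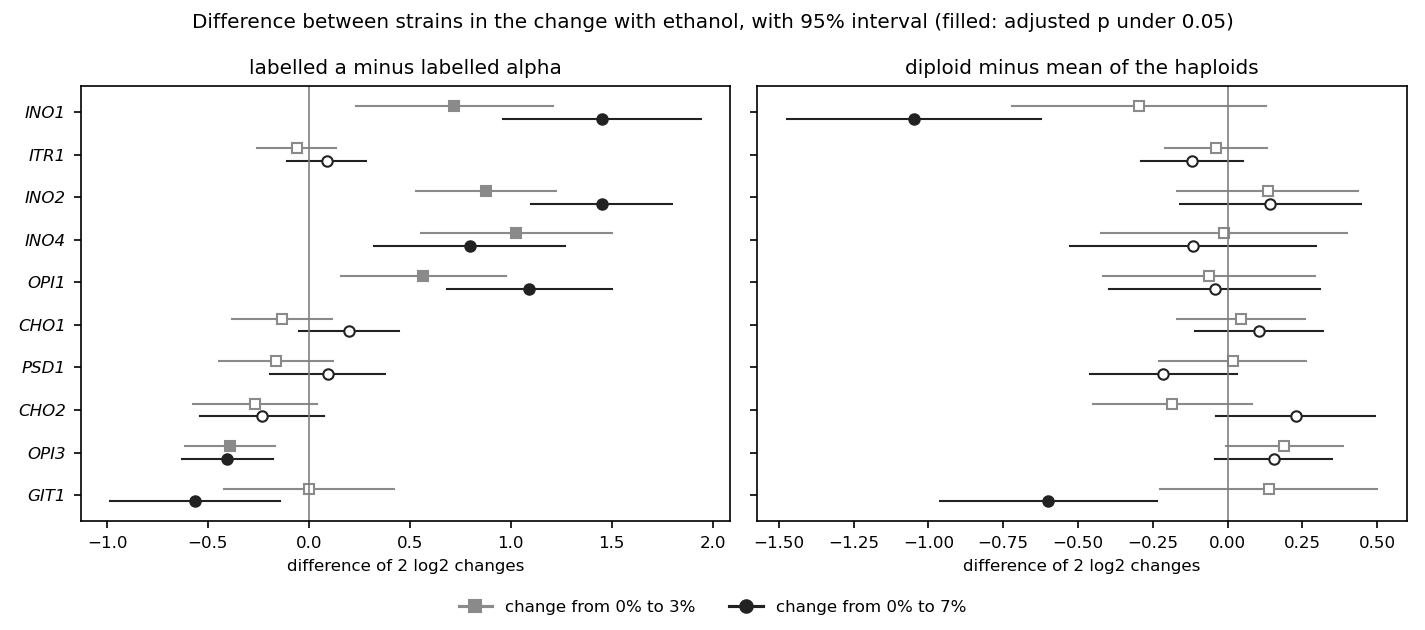
Difference between strains in the log2 change from 0% ethanol, with 95% intervals: the haploid labelled a minus the haploid labelled alpha (left) and the diploid minus the mean of the haploids (right). Filled points passed the test. On the left INO1, INO2, INO4 and OPI1 lie to the right of 0 at both levels and OPI3 to the left, and on the right only INO1 and GIT1 at 7% are filled.

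The other genes of the pathway were taken as lists by function, and the counts that follow are for 7% against 0% in the mean of the strains, where 48.3% of all genes rose and 22.3% fell. For list members other than the genes described above, changes and calls are given under the main scaling only. The choice of scaling shifts the level of all genes. Small rises and falls in the lists, and changes that did not pass, may therefore differ under another scaling. Of 5 genes of inositol supply, 4 rose and 1 fell. Besides INO1 and ITR1, INM1, a monophosphatase that releases free inositol, rose by 1.52 ± 0.06, and ITR2, the minor transporter, by 0.21 ± 0.06. INM2, the other monophosphatase, fell by 0.39 ± 0.07. The median of the list was 0.52.

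Of 10 regulators, INO2, INO4 and OPI1 among them, 7 rose and 1 fell, with a median of 0.35. UME6 and SIN3, which recruit and scaffold a histone deacetylase to promoters of these genes, rose by 0.72 and 0.29, and RPD3, that deacetylase, did not pass. PAH1, the phosphatidate phosphatase that draws down the lipid holding OPI1 outside the nucleus, rose by 0.36. NEM1, the catalytic subunit of its activating phosphatase, rose by 0.35, and SPO7, the other subunit, fell by 0.14 (adjusted p = 0.0484). SCS2, which anchors OPI1 at the endoplasmic reticulum, did not pass. Of the 10 regulators 6 had a larger change in the haploid labelled a than in the haploid labelled alpha and 0 a smaller one, where 30.5% and 7.4% of all genes did, and 3 of the 6 are INO2, INO4 and OPI1.

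Of 7 genes of the CDP-diacylglycerol route, CHO1, PSD1, CHO2 and OPI3 among them, 6 rose and 0 fell, with a median of 0.48. CDS1, which makes CDP-diacylglycerol, rose by 0.54 ± 0.05 and PSD2, the decarboxylase outside the mitochondria, by 0.41. PIS1, the phosphatidylinositol synthase, was the one that did not pass, at -0.06 (adjusted p = 0.155). The Kennedy pathway, which makes phosphatidylcholine and phosphatidylethanolamine from free choline and ethanolamine, had 3 of 7 genes that rose and 2 that fell, shares near those of all genes, with a median of 0.07. EKI1, the ethanolamine kinase, rose by 0.46 ± 0.06, CKI1, the choline kinase, by 0.20, and HNM1, the choline transporter, by 0.18. EPT1, a phosphotransferase of the last step, fell by 0.47 ± 0.05 and PCT1, the rate-limiting enzyme, by 0.36 ± 0.07.

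Of 9 genes of phosphatidate and diacylglycerol 3 rose and 3 fell, against 48.3% and 22.3% of all genes, with a median of 0.01. DGK1, which makes phosphatidate from diacylglycerol, fell by 0.45, ALE1 by 0.42 and GPT2 by 0.30. PAH1, which runs the reaction opposite to that of DGK1, rose by 0.36, SLC1 by 0.22 and LPP1 by 0.15. Of 6 cardiolipin genes 4 rose and 1 fell (median 0.42), led by TAZ1, the transacylase, at 1.05 ± 0.09, with CRD1, the cardiolipin synthase, down by 0.25. All medians stand against 0.13 for all genes.

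The genes around GIT1 substrates moved in both directions. Of 6 genes of deacylation and glycerophosphodiesters, GIT1 included, 4 rose and 1 fell, with a median of 0.37. NTE1, which deacylates phosphatidylcholine, rose by 1.08 ± 0.06 and PLB3, which acts on phosphatidylinositol, by 0.62. GDE1, which breaks down glycerophosphocholine inside the cell, fell by 0.32 ± 0.07. GIT1 is known to be induced by low phosphate as well as by low inositol, so 12 genes of the phosphate response were read beside it. Of these 9 rose and 3 fell, against 48.3% and 22.3% of all genes, with a median of 0.46. PHO84, the high-affinity phosphate transporter, rose by 1.61 ± 0.06, VTC3, of the polyphosphate polymerase, by 1.43 ± 0.05 and PHO81, the inhibitor of the PHO85 kinase, by 1.20 ± 0.06. PHO8, the vacuolar phosphatase, fell by 0.69 ± 0.06 and PHO4, the activator itself, by 0.48. PHO89, a sodium-coupled transporter, was the third, at -0.32, but it exceeded the background limit on only 3 of the 18 arrays. The part of phosphate or of inositol in the rise of GIT1 was not tested.

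**Figure D4:**
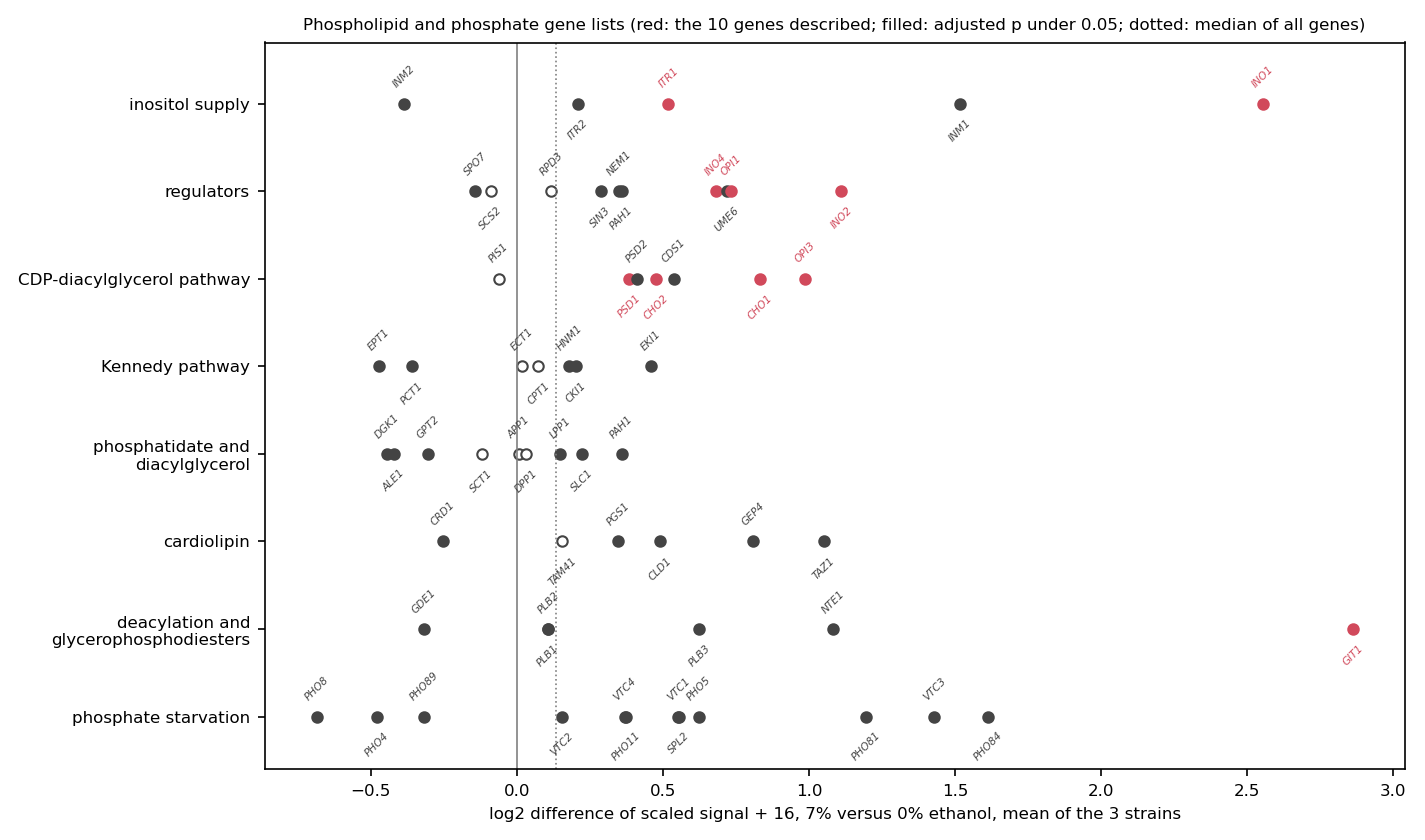
Change from 0% to 7% ethanol (log2 difference of scaled signal + 16, mean of the 3 strains) of each gene of 8 lists. Red marks the 10 genes described, filled points passed the test, and the dotted line is the median of all genes, 0.13. GIT1 and INO1 lie farthest to the right, and the Kennedy pathway and the phosphatidate genes scatter on both sides of 0.

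Over the 9 group means, the 10 genes were correlated with each other to different degrees, given here as a description across groups that share a scaling. Pearson's r ran from 0.415 (INO2 with CHO2) to 0.936 (OPI3 with GIT1). INO1 followed PSD1 (0.923) and CHO1 (0.917) more closely than its activator subunit INO2 (0.616), and INO4 and OPI1 followed each other (0.903).

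Among 1695 genes whose group means spanned at least 1 on the log2 scale, those most like INO1 over the 9 group means were MOH1 (r = 0.987), MUD2 (0.967), YOR338W (0.963), BLM10 (0.963) and CAT2 (0.955). In all, 7 genes exceeded 0.95. Those most like GIT1 were SLP1 (0.982), CRC1 (0.981), CIT2 (0.980), SMP1 (0.978) and YBR200W-A (0.974), and 10 genes exceeded 0.95. Each list rests on 9 points that share an ethanol response.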

How the data were processed

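The deposited values are 1 linear intensity per probe set and array, made by the authors with GCOS per the submitters' processing notes. Its version and settings, and any scaling, were not given in the sources used here. Genes were named from the platform annotation, with 12 symbols updated through RefSeq. Of 10928 probe sets, 5498 read 1 S. cerevisiae gene, 1746 belong to another yeast, 166 are controls, 1 reads several genes and 3517 are unnamed here. The 2% trimmed mean of each array was scaled to 1 level (factors of 0.84 to 1.19), and 16 was added before log2. The background limit was the 95th percentile of the other yeast's probe sets. A gene was tested if it exceeded the limit on at least 2 arrays, by its brightest probe set on average, and 86 genes were not.

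With limma 3.58.1 in R 4.3.3 (lmFit, eBayes with an intensity trend) 1 mean was fitted for each of the 9 groups, with 9 residual degrees of freedom and 24 contrasts. Adjusted p-values are two-sided Benjamini-Hochberg values over 5363 genes within a contrast, with a threshold of 0.05. The fit was tested on simulated data. Tables and figures used Python 3.11.15 with pandas 2.3.3 and matplotlib 3.10.9. Alternatives were the scaling, the pseudocount, the filter, the probe set summary, the trend, each array left out, each strain left out, a covariate for the 18S rRNA control, and a block for the replicate number. Not every alternative that ended or added a call is named above for each gene.

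The 10 genes and the lists were chosen with earlier results of these data known. All 10 are named, with the 5 genes most like each of INO1 and GIT1. Most other list members are named for a small adjusted p within their list or for going against it, but this rule was not kept throughout. GEP4 of the cardiolipin list, for one, rose by 0.81 ± 0.08 from 0% to 7% in the mean of the strains and is not named above. HNM1, PSD2 and LPP1 are named outside the rule. RPD3, SCS2 and PIS1 fall outside it too and were named after their values were seen. No sequence is printed, as no table of sequences was used here.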

Additional observations from a re-analysis of the deposited data

Results flagged for a closer look

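In 13 cases the effect of ethanol on 1 of the 10 genes differed between strains in an interaction test of the limma fit, with adjusted p under 0.05 over all genes. Between the haploids, 30.5% of all genes had a larger and 7.4% a smaller change to 7% in the haploid labelled a, and 15.3% and 3.6% to 3%. For the diploid's change to 7% the shares were 4.77% and 4.44%. The cases share 0% arrays, and several calls were lost under other scalings or without single arrays, as given above. From 0% to 7% the change in the haploid labelled a exceeded that in the haploid labelled alpha by 1.45 ± 0.23 for INO1, 1.45 ± 0.17 for INO2, 0.80 ± 0.23 for INO4 and 1.09 ± 0.20 for OPI1. It fell short by -0.40 ± 0.11 for OPI3 and by -0.56 ± 0.20 for GIT1. From 0% to 3% the differences between the same haploids were 0.72 ± 0.23 for INO1, 0.88 ± 0.17 for INO2, 1.03 ± 0.23 for INO4, 0.57 ± 0.20 for OPI1 and -0.39 ± 0.11 for OPI3. The diploid differed from the mean of the haploids in its change from 0% to 7% by -1.05 ± 0.20 for INO1 and by -0.60 ± 0.17 for GIT1. Both values of GIT1 start from haploid signals at 0% near or below the background limit. Groups of 2 arrays are too small to look for single outlying samples.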

How the results depend on the processing

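All 10 genes kept their rise from 0% to 7% in the mean of the strains under every alternative in which they were tested, with changes of 1.75 to 3.12 for INO1, 1.58 to 4.48 for GIT1, 0.63 to 1.50 for INO2 and 0.18 to 0.46 for PSD1. Testing only genes above the limit on all 18 arrays left 9 of the 10, without GIT1. The scaling set the level of all genes. The median change of all genes at 7% was 0.13 in the mean of the strains and 0.26 in the haploid labelled a, against -0.06 and -0.08 with median centring. There 2591 genes of all tested rose in the mean of the strains and 1196 fell, against 1654 and 2165 with median centring, 1874 and 1844 with quantile normalization and 1869 and 1369 with no scaling. CHO2 in the haploid labelled a turned from 0.28 to -0.058 with median centring.

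Of the counts of genes past the threshold, the diploid against the haploids at 0% went from 3 to 1 with no scaling and to 1 with a pseudocount of 64. The shares of all genes for the diploid at single ethanol levels are not given here, so these counts show only how the calls move. The haploid labelled a against the haploid labelled alpha went from 5 to 8 at 0% and from 2 to 1 at 3% with median centring. The difference between these strains in the change to 3% went from 5 to 2 with no scaling, 2 with quantile normalization and 3 with median centring. The difference between the diploid and the haploids in the change to 7% went from 2 to 1 with no scaling, 0 with a pseudocount of 1 and 1 with genes above the limit on all arrays. With 1 array left out at a time, the counts ranged from 1 to 3 for the diploid against the haploids at 0%, from 2 to 4 at 3% and from 1 to 3 at 7%, and from 1 to 2 for the haploids at 3%. For the differences in change they ranged from 0 to 1 (diploid, to 3%), from 2 to 5 (haploids, to 3%) and from 1 to 2 (diploid, to 7%). A group left with 1 array is assumed to vary like the others. The cause of these shifts was not tested.

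Over all pairs of groups the replicate numbers showed no strong pairing of the samples. Same-numbered arrays of 2 groups deviated together with r of -0.254 to 0.184 over 36 pairs of groups, 11 of them over 0.1. Pairs of groups within 1 strain were not read apart from the others. With the replicate number as a block, the number of the 10 genes called from 0% to 7% in the mean of the strains was 10, and no count moved by over 1.5 times. The block ended the calls of OPI1 (difference between the haploids in the change to 3%, adjusted p = 0.0529) and CHO2 (diploid at 0%, adjusted p = 0.0581) and added GIT1 (diploid at 7%, adjusted p = 0.0478). CHO2 in the diploid at 0% lay at the threshold, at an adjusted p over 0.05 also with no scaling, quantile normalization and median centring.

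Pairs of arrays limit every estimate, GIT1 at 0% lies at the background limit, and dim genes depend on the pseudocount.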
